A study of Mus musculus with 20 samples.

Results

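The genes described here are the mouse Zfp genes, which encode zinc finger proteins and carry a symbol of Zfp followed by a number, in the amygdala of mice from stressed and unstressed lineages. A gene was included when its symbol had this form and its counts summed over 20 libraries reached 2000, so the members were chosen by their measured level, which is given as a description. Of 29671 genes in the count table, 369 had such a symbol and 233 reached that sum, and all 233 were among the 16727 genes with enough counts to be tested. Just inside the limit were Zfp787, with 2001 counts over all libraries, and Zfp41 and Zfp712, with 2020 each, and just outside it were Zfp560 with 1993, Zfp72 with 1986 and Zfp109 with 1983. Messenger RNA was measured by poly-A selected, stranded RNA sequencing of bilateral 1.2 mm amygdala punches from 20 behaviourally naive male C57B6 mice, bred in house from Taconic stock, at postnatal day 84. The 4 groups of 5 mice were the F2 stress lineage (mice 11 to 15), the F2 no-stress lineage (mice 16 to 20), the F1 stress lineage (mice 1 to 5) and the F1 no-stress lineage (mice 6 to 10). F1 and F2 count generations after ancestors that did or did not go through chronic unpredictable stress, in adolescence according to the series title, and no sampled mouse is described as stressed itself. The labels do not say through which parent a lineage ran or whether mice of a group were littermates, so p-values measure the spread between these mice.

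Most Zfp proteins bind DNA through repeated C2H2 zinc fingers, short modules in which a pair of cysteines and a pair of histidines hold a zinc ion. Many also carry a KRAB box, which recruits the corepressor Trim28 and with it the histone methyltransferase Setdb1 and HP1 proteins, and KRAB zinc finger genes often lie in clusters that arose by duplication. Such proteins are best known for silencing retroelements and for keeping the DNA methylation of imprinted genes, while Zfp proteins without a KRAB box include activators, chromatin complex subunits and RNA-binding proteins. In the GENCODE annotation of GRCm38, 232 of the 233 genes were protein-coding and Zfp783 was a transcribed pseudogene. A search of the annotated coding sequences found at least 1 C2H2 finger in 227 of the 232, against 819 of 14247 tested genes with a coding sequence. A stretch like the KRAB A-box was found in 114 members, called KRAB-like below, and not in the other 119, among which Zfp783 is counted. Of the 233 genes, 95 lay in 17 genomic runs of at least 5 Zfp symbols with neighbours at most 500 kb apart. No run by this rule lay on chromosome 2, so the near-copies there, described below, counted as outside runs.

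The coding sequence of the fingers shows how the base composition of these genes differs, a property set beside the F2 results below. The first standard finger of each of the following genes is printed from the GRCm38 coding sequence, 5′ to 3′ on the gene's strand, from the first cysteine codon to the last histidine codon, with the 4 zinc-holding codons in capitals. The first 4 genes were called higher, and the next 4 lower, in the F2 stress lineage than in the F2 no-stress lineage, and they are shown as examples chosen from those calls.
Zfp655 (chr5:145244066-145244128, plus strand): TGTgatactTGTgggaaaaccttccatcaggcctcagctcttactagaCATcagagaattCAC
Zfp748 (chr13:67542579-67542641, minus strand): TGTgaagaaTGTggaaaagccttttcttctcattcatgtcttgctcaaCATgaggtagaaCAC
Zfp189 (chr4:49529292-49529354, plus strand): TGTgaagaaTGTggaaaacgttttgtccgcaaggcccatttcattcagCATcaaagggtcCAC
Zfp605 (chr5:110127621-110127683, plus strand): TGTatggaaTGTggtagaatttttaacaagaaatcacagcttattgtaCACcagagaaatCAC
Zfp653 (chr9:22056013-22056075, minus strand): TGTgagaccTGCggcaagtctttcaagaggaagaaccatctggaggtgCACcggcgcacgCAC
Zfp335 (chr2:164902280-164902342, minus strand): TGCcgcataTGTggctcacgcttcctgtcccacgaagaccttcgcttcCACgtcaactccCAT
Zfp787 (chr7:6132987-6133049, minus strand): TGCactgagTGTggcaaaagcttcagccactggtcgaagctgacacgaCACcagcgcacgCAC
Zfp513 (chr5:31200518-31200580, minus strand): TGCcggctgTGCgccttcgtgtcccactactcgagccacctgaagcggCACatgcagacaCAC
Cysteine and histidine can each be written with a codon ending in T or in C, so the capitals show a choice that leaves the zinc site unchanged. In the printed fingers of the higher genes 1 or 2 of the 4 codons ended in C, and in those of the lower genes 2 to 4 did. Finger GC content ran from 33.3 to 46.0% in the higher genes and from 57.1 to 63.5% in the lower ones. Over all standard fingers of the 114 KRAB-like members, 29.8% of 5460 such codons ended in C, against 51.7% of 3228 in the members without the stretch.

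Zfp genes were expressed at low to moderate levels in every library, and together they took 0.621 to 0.746% of its counts. Levels are given as CPM, counts scaled to a common library size with normalisation factors. The highest mean over 20 libraries was that of Zfp365, a protein known to bind the psychiatric risk protein Disc1, at 480.0 CPM, and no C2H2 finger was found in its coding sequence. It was followed by the pluripotency-exit factor Zfp706 at 214.7 CPM, the RNA-binding protein Zfp106 at 213.9 CPM, the imprinting regulator Zfp445 at 202.8 CPM and the ubiquitin ligase Zfp91 at 131.2 CPM. Per kilobase of transcript, Zfp365 stood at 112.7 CPM, Zfp706 at 48.6, Zfp445 at 32.8, Zfp91 at 23.7 and Zfp106 at 23.6, so that the last pair could not be ordered. Zfp365 ranged from 351.1 to 596.3 CPM in F2 stress, from 293.7 to 572.6 in F2 no-stress, from 303.5 to 615.4 in F1 stress and from 347.4 to 665.6 in F1 no-stress mice, and the 4 groups overlapped. The median level was 14.6 CPM in KRAB-like members and 21.3 CPM in the others. KRAB-like genes also had more fingers, with a median of 12 against 8, and lower transcript GC content, with a median of 41.9% against 48.8%. Within groups, the SD between mice as a share of the mean, averaged over groups, had a median of 11.7% over the 233 genes and ran from 4.92% for Zfp644 to 42.6% for Zfp423.

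Each library held 13654890 to 13714805 counts, totals brought close together before deposit, so the original depth is not known. Neuronal, glial, vascular, striatal, pallial and central amygdala marker lists were detected in every group, with no marker at 0 in all libraries. Striatal neuron markers summed to 538.7 to 5358 CPM in F2 stress and 1674 to 4727 CPM in F2 no-stress mice, and pallial excitatory markers to 358.6 to 1051 CPM and 40.9 to 1140 CPM in the same order. Mouse 14 of the F2 stress group was lowest in the first list and mouse 20 of the F2 no-stress group in the second. Mouse 15 of the F2 stress group was highest in the first list and lowest of its group in the second. Of 56 marker entries, 1, an endothelial one, passed the test between F2 lineages, and none between F1 lineages. In tissue of mixed cells, fewer cells of a type and less RNA per cell cannot be told apart.

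The F2 lineages differed in 26 Zfp genes. In F2 stress mice, 11 were higher and 15 were lower than in F2 no-stress mice (edgeR quasi-likelihood test, adjusted p below 0.05 over all genes). Most of these calls depended on the fit: 0 were higher and 1 lower with an offset for GC content and length, described below, and 0 were called with only the F2 mice fitted. The higher genes included Zfp189, known in mice as a prefrontal cortex factor tied to stress resilience, Zfp24, needed for central myelination in mice, and 6 KRAB-like genes. The lower genes included the chromatin complex subunit Zfp335, the transcription factor Zfp523, the ribosome quality control ligase Zfp598 and 12 others, none of them KRAB-like. Changes were modest: log2 fold changes ran from 0.22 to 0.51 in the higher genes and from −0.75 to −0.33 in the lower ones. Among all genes tested, 7.92% were called, 2.64% higher and 5.28% lower, against 26 of 233 members, or 11.2%. Members had to reach a sum of 2000 counts and the other genes tested did not, so these shares compare genes of unlike levels. The median log2 fold change of the 233 genes was 0.04 (133 positive, 100 negative), beside 0.001 over all genes, and −0.032 with the offset for GC content and length described below. The count rested on several mice: leaving out F2 stress mouse 11, 12 or 13 left 3, 8 or 10 called members, and leaving out F2 no-stress mouse 16, 17 or 19 left 4, 6 or 16. Zfp653, Zfp523 and Zfp335 were called in each of the 20 fits that left out 1 mouse. Mouse 14 and mouse 20, the lowest in striatal and in pallial markers, were also left out together after the data were seen. Without them 24 members were higher (4.87% of all genes) and 13 lower (8.33%), 37 in all (13.2%). Mouse 15, the highest in striatal markers, was kept in that fit.

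**Figure D1:**
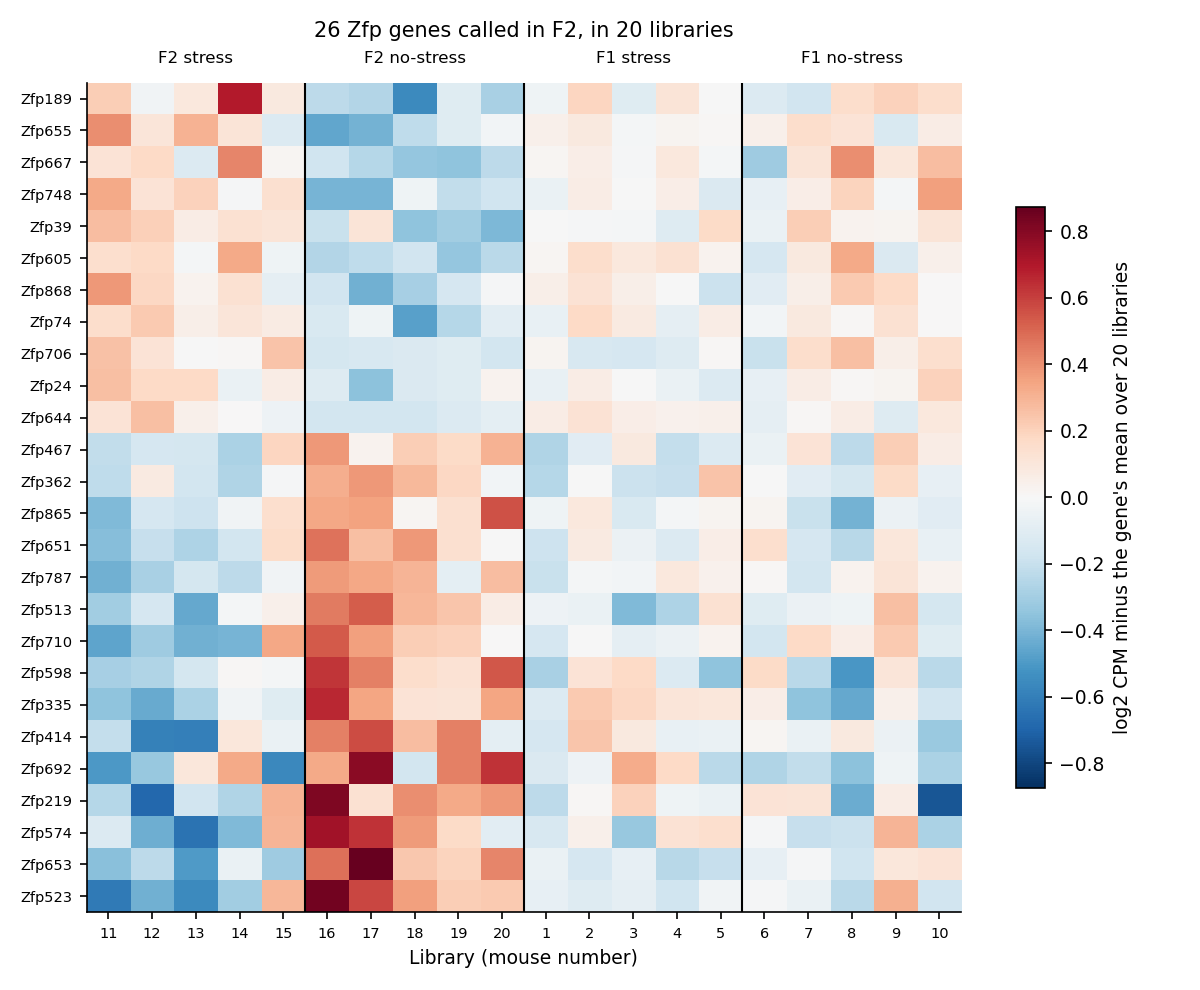
Heat map of the 26 Zfp genes called between F2 lineages (rows, by log2 fold change) in 20 libraries (columns, by group and mouse number); colour is log2 CPM minus the gene's mean over the 20 libraries. Rows from Zfp189 to Zfp644 were higher and those from Zfp467 to Zfp523 lower in F2 stress than in F2 no-stress mice, while the F1 groups lie mostly near the gene's mean.

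Zfp655 had 48.3, 39.3, 45.0, 39.4 and 33.6 CPM in F2 stress mice 11 to 15, against 26.6, 27.4, 31.25, 33.9 and 35.8 CPM in F2 no-stress mice 16 to 20. Mouse 15 was the lowest of its group and fell below mice 19 and 20, so the groups overlapped. The difference was 1.33-fold (log2 fold change 0.41 ± 0.10 SE from the fit of all 20 libraries, n = 5 mice per group, edgeR adjusted p = 0.0174). Zfp748, a KRAB-like gene with 23 fingers in a run on chromosome 13, had 18.1, 15.6, 16.6, 14.3 and 15.9 CPM in F2 stress mice, against 10.9, 10.9, 14.1, 12.4 and 12.8 CPM in F2 no-stress mice. Its groups did not overlap (log2 fold change 0.40 ± 0.10 SE, adjusted p = 0.0198). Zfp189 had 10.98, 9.29, 10.1, 15.3 and 10.04 CPM in F2 stress mice, against 8.10, 7.92, 6.45, 8.79 and 7.79 CPM in F2 no-stress mice. The groups did not overlap, and mouse 14 stood above its group (log2 fold change 0.51 ± 0.13 SE, adjusted p = 0.0220).

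The other 8 higher genes had log2 fold changes between 0.22 and 0.40. They were the KRAB-like genes Zfp605 (0.37), Zfp39 (0.37), Zfp74 (0.31), Zfp667 (0.40) and Zfp868 (0.34), and Zfp644, Zfp706 and Zfp24 without such a stretch. Zfp644, a partner of the histone methyltransferases G9a and GLP, had 70.2, 77.6, 66.55, 64.7 and 62.75 CPM in F2 stress mice, against 57.85, 57.7, 57.7, 59.45 and 60.95 CPM in F2 no-stress mice. Zfp706 had 255.4, 232.5, 212.6, 214.6 and 253.7 CPM in F2 stress mice, against 191.9, 193.7, 195.8, 198.9 and 191.1 CPM in F2 no-stress mice. Neither gene's groups overlapped, and the F2 no-stress mice lay close together in both genes. The log2 fold changes were 0.22 ± 0.06 SE for Zfp644 (adjusted p = 0.0379) and 0.27 ± 0.08 SE for Zfp706 (adjusted p = 0.0440). Zfp24 averaged 48.7 ± 4.12 CPM in F2 stress and 40.9 ± 3.83 CPM in F2 no-stress mice (SD, n = 5 each, edgeR adjusted p = 0.0493), close to the threshold.

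Zfp653, whose human counterpart is a corepressor of nuclear receptors, had the smallest p of the 233 genes. It had 7.27, 8.01, 6.67, 9.01 and 7.55 CPM in F2 stress mice, against 13.1, 17.2, 11.02, 10.7 and 12.6 CPM in F2 no-stress mice. The groups did not overlap (0.596-fold, log2 fold change −0.75 ± 0.12 SE, adjusted p = 0.0056). Zfp523, the counterpart of human ZNF76 and a relative of the promoter factor Zfp143, had 35.4, 40.5, 36.8, 44.0 and 66.2 CPM in F2 stress mice, against 97.0, 81.3, 69.5, 63.0 and 63.5 CPM in F2 no-stress mice. Mouse 15 alone of the F2 stress group reached the range of the other group (log2 fold change −0.75 ± 0.15 SE, adjusted p = 0.0111). Zfp335, a subunit of histone methyltransferase complexes needed for brain growth in mice and humans, had 15.8, 14.8, 16.6, 19.6 and 18.65 CPM in F2 stress mice, against 31.7, 25.5, 21.8, 21.8 and 25.5 CPM in F2 no-stress mice. The groups did not overlap (log2 fold change −0.56 ± 0.12 SE, adjusted p = 0.01215).

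Of the other 12 lower genes, Zfp787 had 5.42, 5.97, 6.53, 6.19 and 7.10 CPM in F2 stress mice, against 9.39, 9.18, 8.92, 6.85 and 8.73 CPM in F2 no-stress mice. Mouse 19 was low for its group and fell below mouse 15 (log2 fold change −0.46 ± 0.11 SE, adjusted p = 0.0155). Zfp598, which ubiquitinates ribosomes that have collided on a message, had 20.7, 21.15, 22.8, 25.5 and 25 CPM in F2 stress mice, against 39.0, 34.4, 28.1, 27.6 and 36.9 CPM in F2 no-stress mice. The groups did not overlap (log2 fold change −0.53 ± 0.14 SE, adjusted p = 0.0230). Zfp513, mutated in a human retinal dystrophy, averaged 11.1 ± 1.51 CPM in F2 stress and 15.5 ± 1.94 CPM in F2 no-stress mice (SD, n = 5 each), also without overlap. Zfp414 had a log2 fold change of −0.58, and 44.0% of its 50-base words also occur in another annotated gene, so its reads may be split between them. The log2 fold changes of the others were −0.61 for Zfp574 and for Zfp219, a Sox9 partner in mouse cartilage, −0.59 for Zfp692, −0.49 for Zfp710, −0.42 for Zfp651, −0.40 for Zfp865, −0.34 for Zfp362 and −0.33 for Zfp467.

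**Figure D2:**
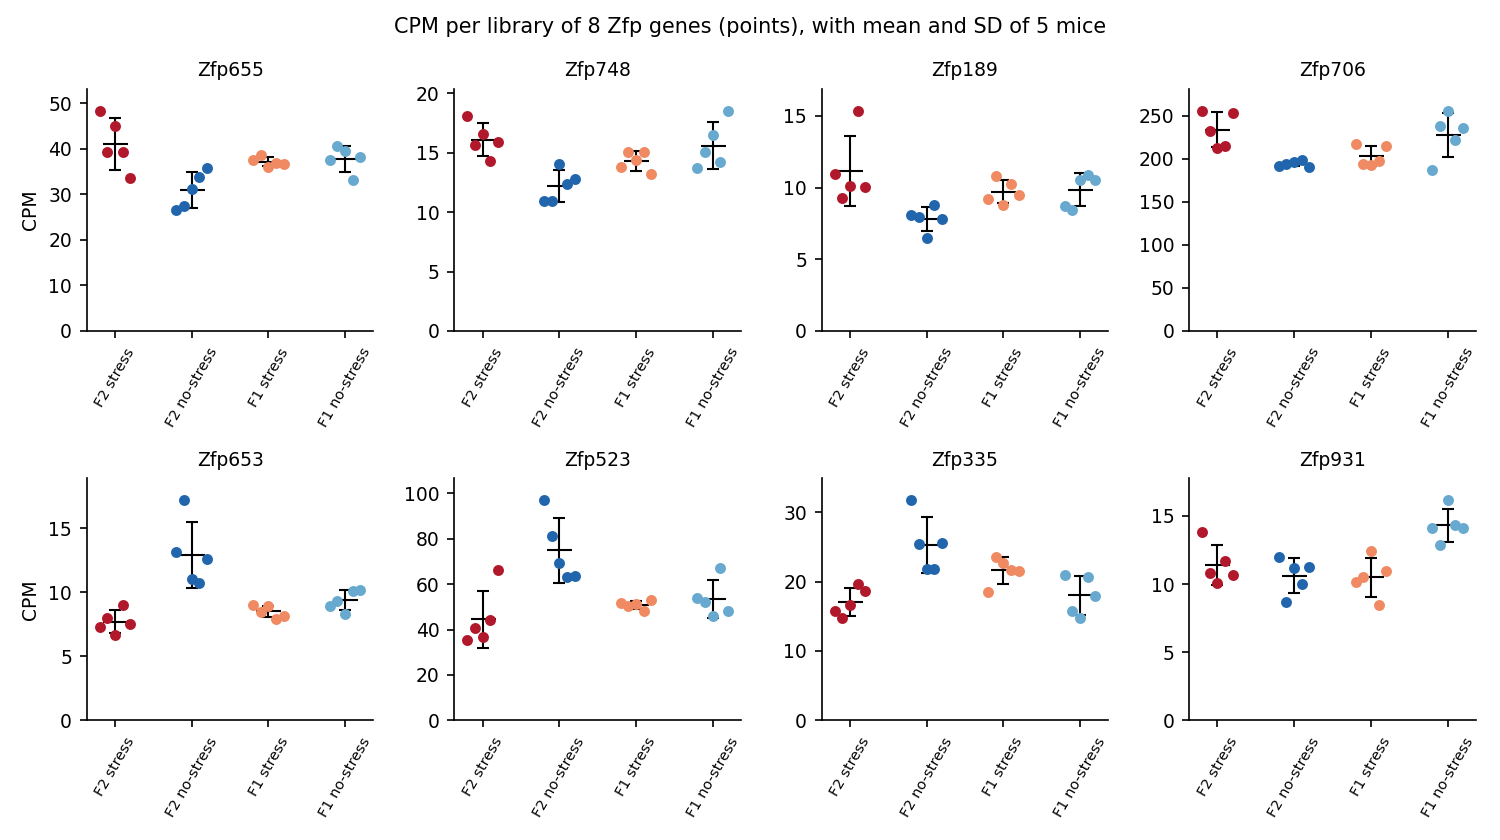
CPM (y axis, from 0) of 8 Zfp genes in each library (points), with the mean and SD of 5 mice (bars), for F2 stress, F2 no-stress, F1 stress and F1 no-stress mice. Zfp655, Zfp748, Zfp189 and Zfp706 sit higher and Zfp653, Zfp523 and Zfp335 lower in F2 stress than in F2 no-stress mice; Zfp931 shows F1 stress mice below F1 no-stress mice.

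Counted over the 233 genes, the F2 lineages did not overlap in 8 higher and 4 lower members, against 4.61% of all genes tested. Of these 12, all but Zfp148 were called. Zfp148, which binds GC-rich promoters, averaged 116.4 ± 15.2 CPM in F2 stress and 96.3 ± 1.96 CPM in F2 no-stress mice (SD, n = 5 each, edgeR adjusted p = 0.0509).

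The called genes differed in base composition between directions. KRAB-like members had 6 higher and 0 lower genes of 114, or 5.26% called, with a median log2 fold change of 0.10, and the 119 others had 5 higher and 15 lower genes, or 16.8% called, with a median of −0.04, but both medians were −0.03 with the offset described below. Among all genes 2.64% were higher and 5.28% lower, and the difference between the KRAB-like and other members was not tested. The split rests on a pattern match that may miss a KRAB box, and it put Zfp189 among the others. Transcript GC content ran from 39.2 to 44.7% in the 11 higher genes and from 47.0 to 62.1% in the 15 lower genes, so the sets did not overlap in it. The median GC content was 43.1% in the higher, 57.9% in the lower and 44.1% in the uncalled members. Zinc-holding codons ended in C in 31.9% of 476 cases in the higher genes, 69.6% of 408 in the lower genes and 36.6% of 7804 in the uncalled ones. Per gene, this share ran from 8.33 to 45.8% in the 10 higher genes with a standard finger. It ran from 37.5 to 87.5% in the 12 lower genes with one, so the sets overlapped in it. Across the 233 genes, the Spearman correlation between GC content and the F2 log2 fold change was −0.61, beside −0.54 across 16692 tested genes with known GC content, so the relation was not particular to Zfp genes. These correlations are across genes that share the same 10 F2 libraries, and genes are not independent replicates.

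**Figure D3:**
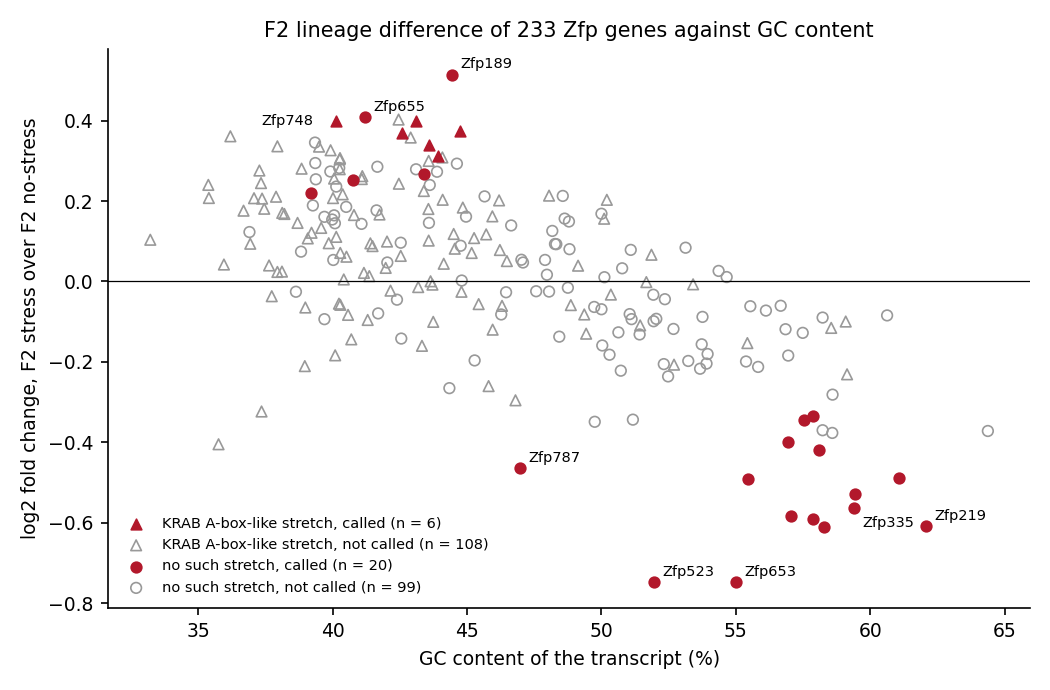
F2 log2 fold change (stress over no-stress, y axis) against transcript GC content in percent (x axis) of 233 Zfp genes; triangles are KRAB-like, circles are not, and filled symbols were called. The 11 higher genes lie between 39.2 and 44.7% GC and the 15 lower genes between 47.0 and 62.1% GC.

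When the members were ordered by GC content and split into 3 sets, the 78 with the lowest GC content had 4 higher and 0 lower genes and a median log2 fold change of 0.16. The 78 in the middle had 7 higher genes and 1 lower, Zfp787, with a median of 0.09, and the 77 with the highest GC content had 0 higher and 14 lower genes, with a median of −0.13. Within the low-GC set 1 of 56 KRAB-like members and 3 of 22 others were higher, and the median was 0.13 in the KRAB-like members and 0.18 in the others, and within the middle set 0.10 in 42 and 0.07 in 36. In the high-GC set, 16 KRAB-like members had a median of −0.07 and no called gene, and 61 others had a median of −0.18 and all 14 lower genes. The 3 sets had 5.13, 10.3 and 18.2% of their members called, beside 7.92% of all genes tested (2.64% higher, 5.28% lower). The correlation with GC content was −0.30 over KRAB-like members and −0.76 over the others, a description over 114 and 119 genes of the same libraries. Across all tested genes with known GC content it was −0.54, so the gradient was not particular to Zfp genes.

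The same contrast varied between libraries. In each library the median deviation of KRAB-like members from their 20-library means, minus that of the other members, was taken on the log2 scale. It was 0.11, 0.07, 0.10, 0.04 and −0.12 in F2 stress mice 11 to 15, against −0.15, −0.13, −0.16, −0.07 and 0.11 in F2 no-stress mice 16 to 20. Mouse 15 and mouse 20 went against the other 4 of their groups, so the F2 groups overlapped. In the F1 groups the value ran from −0.06 to 0.06 in stress and from −0.04 to 0.10 in no-stress mice. Over all tested genes, the same difference between the highest and the lowest of 10 bins of GC content was −0.30, −0.38, −0.40, −0.10 and 0.21 in F2 stress mice, against 0.61, 0.44, 0.48, 0.27 and −0.10 in F2 no-stress mice. Mice 15 and 20 again stood apart from the rest of their groups, and F1 libraries ran from −0.40 to 0.13. Whether this trend arose in the tissue or in the preparation of the libraries was not tested.

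**Figure D4:**
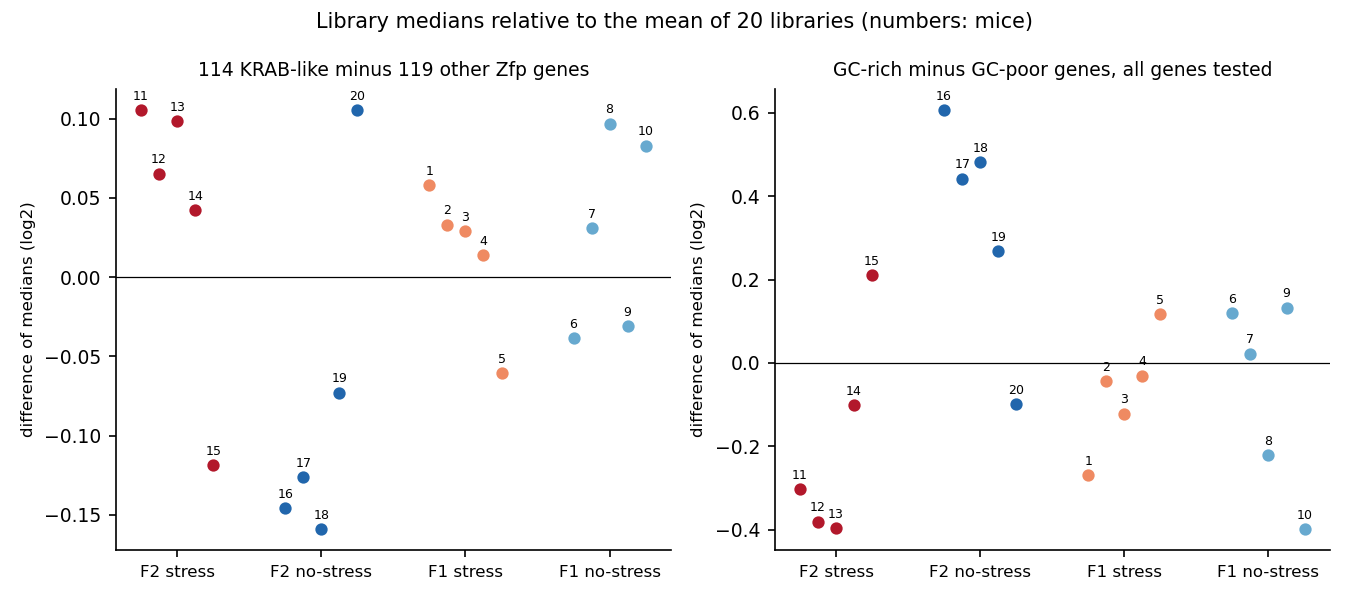
Per library (points, with mouse numbers), the median log2 deviation of KRAB-like minus other Zfp genes (left) and of the highest minus the lowest GC bin of all tested genes (right), for F2 stress, F2 no-stress, F1 stress and F1 no-stress mice. In F2, mice 15 and 20 lie opposite to the other 4 mice of their groups in both panels.

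Most F2 calls did not remain when an offset removed, library by library, the trend of counts with gene GC content and length before testing. With this offset, 0 of the 233 genes were higher (0.03% of all genes) and 1 was lower (0.0899% of all genes), Zfp787 (log2 fold change −0.58, adjusted p = 0.0455), beside 0.12% of all genes in either direction. All 26 kept their sign, as did 140 of the 207 uncalled members. The 26 were chosen for their differences in the same libraries, so a kept sign is no independent support. Among the 26, Zfp653 (−0.59) and Zfp523 (−0.71) came next, both with an edgeR adjusted p of 0.0519, and Zfp189 had 0.35 (adjusted p = 0.235). The smallest adjusted p among the 207 uncalled members was also 0.0519. The median size of the log2 fold change was 0.18 with the offset and 0.37 without it in the 11 higher genes, and 0.20 with and 0.53 without it in the 15 lower ones. The KRAB-like and other members then had medians of −0.03 each, and the correlation with GC content over the 233 genes was −0.06. Direction by KRAB class thus did not hold under this scaling. The 26 single genes kept their sign, but only Zfp787 among them was still called. With the fit restricted to the 10 F2 mice, 0 members were called by edgeR, with 49 at an unadjusted p below 0.05 and 0.0% of all genes called. DESeq2 called 33 members (12.6% of all genes), 17 higher (5.29%) and 16 lower (7.27%), and limma-voom 25 (7.68%), 10 higher (2.45%) and 15 lower (5.24%).

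**Figure D5:**
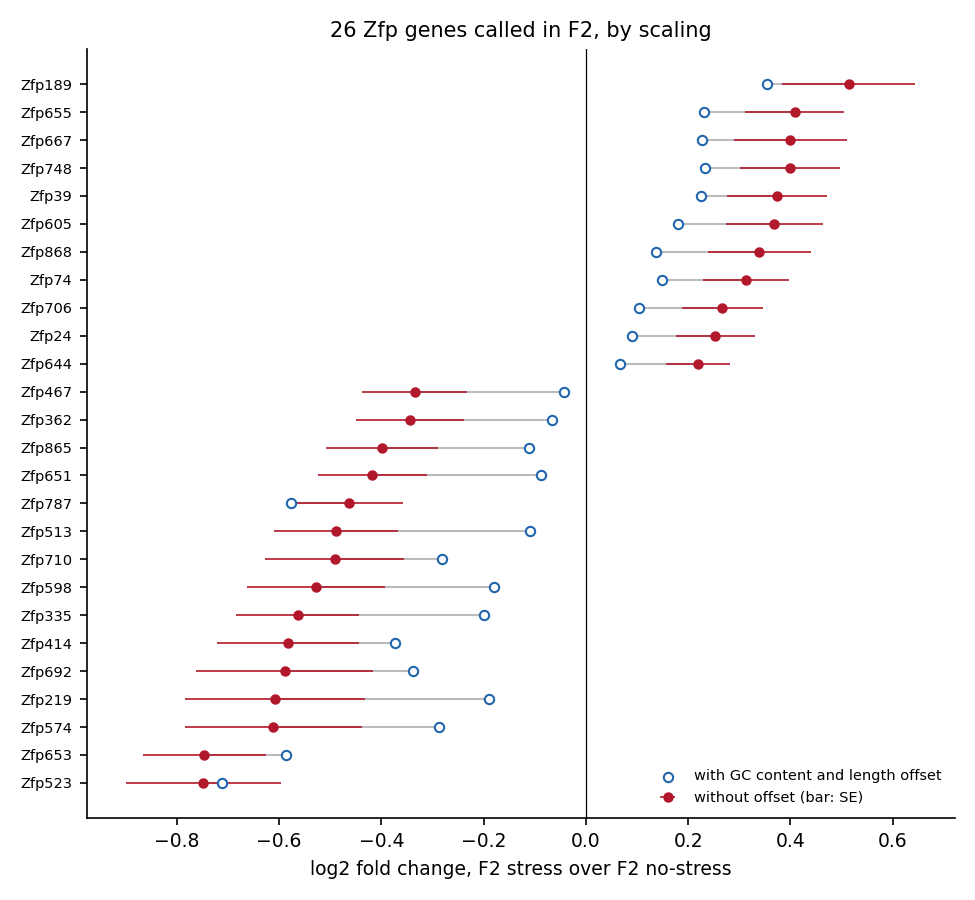
Log2 fold change (F2 stress over F2 no-stress, x axis) of the 26 called Zfp genes without an offset (filled, with SE) and with the offset for GC content and length (open). All 26 keep their sign; With the offset Zfp523 lies at −0.71, Zfp653 at −0.59 and Zfp787 at −0.58, the last farther from 0 than its −0.46 without it, while Zfp467 and Zfp644 come close to 0.

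By known role, 5 of 6 lists of Zfp genes by function or domain held 1 or 2 genes called in F2, and no list was tested as a group. Among all genes 7.92% were called, 2.64% higher and 5.28% lower. Of 4 silencers of imprinted genes and retroelements among the members, 0 were called in F2 by edgeR and 1, Zfp638, had an unadjusted p below 0.05. Their log2 fold changes were −0.16 for Zfp445, a guardian of imprints, 0.07 for Zfp809, which silences murine leukaemia virus in mouse stem cells, −0.32 for the endogenous retrovirus repressor Zfp932 and 0.24 for Zfp638, a partner of the HUSH silencing complex. Zfp445 had 170.0, 202.6, 219.0, 225.3 and 163.2 CPM in F2 stress mice, against 195.3, 228.9, 149.1, 197.3 and 324.6 CPM in F2 no-stress mice. The groups overlapped widely, and mouse 20 held the highest value. Zfp57 and Zfp568, silencers of imprinted and developmental genes, did not reach the count limit, with 1668 and 1020 counts in all, and neither was called in F2.

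Among 10 partners of chromatin complexes, Zfp644 was higher and Zfp335 lower in F2 stress mice, and the median log2 fold change was −0.09. Zfp609 and Zfp292 belong to 11 genes of neural development and brain function, of which Zfp189 and Zfp24 were higher and 0 lower. Zfp609, a regulator of cortical neuron migration in mice, had −0.21 (adjusted p = 0.133), and Zfp292 had 0.19 (adjusted p = 0.196). Of 8 factors listed as binding and activating promoters, Zfp219 was lower, Zfp148 had 0.27, Zfp281 0.28 and Zfp384 −0.24, the last 3 uncalled. Zfp523, described above as a relative of the promoter factor Zfp143, was also lower but was not counted in this list. Of 8 genes of RNA, ribosome and ubiquitin handling, Zfp598 was lower, and Zfp622 (0.24), Zfp91 (0.16) and Zfp451 (0.14) were uncalled. Of 10 members listed as having a SCAN domain, a dimerisation module, only Zfp24 was called, and the sequences were not searched for that domain. Of 4 X-linked members 0 were called, with 0 at an unadjusted p below 0.05. Among all genes 7.92% were called between F2 lineages, 2.64% higher and 5.28% lower, and with lists this small the counts cannot be set apart from that share. With the offset for GC content and length, none of these lists had a called member between F2 lineages. Between F1 lineages none of them had a called member either.

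The KRAB corepressor machinery was measured beside its partners. Of 20 such genes, Smarcad1, a chromatin remodeller, was higher in F2 stress mice (log2 fold change 0.35, adjusted p = 0.0212), and 0 were lower, beside 2.64% higher and 5.28% lower among all genes. With the offset Smarcad1 had 0.18 and 0 of the 20 were called. Trim28 had −0.15, or 0.21 with the offset, and Setdb1 −0.09, both uncalled, and Cbx5, which encodes an HP1 protein, had 0.20 (adjusted p = 0.109). Among other zinc finger families with the same summed count, 0 of 31 Zbtb genes were higher and 1 lower, and 0 of 14 Zkscan and Zscan genes were higher and 1 lower. Their median log2 fold changes were 0.01 and −0.03.

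In the F1 generation, no Zfp gene passed the test between lineages. By edgeR 0 of 233 were called with 10 at an unadjusted p below 0.05, by DESeq2 0 with 13 and by limma-voom 0 with 8, and among all genes 0.0% were called by edgeR and 0.00674% by DESeq2. The median log2 fold change was 0.01, with 125 positive and 108 negative. The smallest p belonged to Zfp931, a KRAB-like gene on chromosome 2 (log2 fold change −0.45 ± 0.11 SE, adjusted p = 0.739). It had 10.1, 10.5, 12.4, 8.44 and 10.9 CPM in F1 stress mice 1 to 5, against 14.1, 12.8, 16.15, 14.3 and 14.1 CPM in F1 no-stress mice 6 to 10. The groups did not overlap, as was the case for 2 members in all, the other being Zfp28 with a log2 fold change of 0.32, and for 1.24% of all genes. In F2, Zfp931 averaged 11.4 ± 1.48 CPM in stress and 10.6 ± 1.29 CPM in no-stress mice (SD, n = 5 each), with a log2 fold change of 0.10. The next smallest p values in F1 were those of Zfp968 (0.53), Zfp969 (0.58), Zfp112 (−0.31) and Zfp623 (0.23), each with an edgeR adjusted p of 0.739. The 11 genes higher in F2 stress mice had F1 log2 fold changes from −0.16 to 0.07, 9 of them negative, and the 15 lower genes had values from −0.14 to 0.26, 7 of them positive.

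Zfp968 and Zfp969 are near-copies of each other and of Zfp966 on chromosome 2, and their first standard finger is the same in all 63 bases. A further copy, Zfp967, shared 100% of its 50-base words with other genes, the largest number with Zfp969. The first finger of the 3 genes is printed as above, with zinc-holding codons in capitals. A read from this stretch could come from any of them.
Zfp968 (chr2:175382283-175382345, plus strand): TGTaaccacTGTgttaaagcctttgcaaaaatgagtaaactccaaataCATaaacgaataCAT
Zfp966 (chr2:175921217-175921279, minus strand): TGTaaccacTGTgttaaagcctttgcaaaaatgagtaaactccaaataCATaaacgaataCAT
Zfp969 (chr2:175693815-175693877, minus strand): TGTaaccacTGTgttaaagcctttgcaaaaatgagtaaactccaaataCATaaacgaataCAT
Of the 50-base words in their transcripts, 89.6 to 100% also occur in other genes, and 15 of the 233 members shared at least 25% of theirs. Of these 15, 8 lie on chromosome 2 between positions 175372436 and 178034022 and are Zfp965 to Zfp971 and Zfp973. They were singled out after their values were seen, so no test is given. Their F1 log2 fold changes ran from 0.09 to 0.58 and their F2 ones from 0.01 to 0.36, all positive without the offset, but reads counted for 1 copy may come from another.

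The counts of the 8 copies were therefore summed. The sum does not settle reads shared with genes outside the 8, such as Gm14288, the gene that shared the most words with Zfp971. The sum was 97.2, 114.8, 119.7, 118.7 and 75.95 CPM in F1 stress mice 1 to 5, against 92.5, 80.5, 81.1, 68.5 and 81.0 CPM in F1 no-stress mice 6 to 10. It was 85.0, 98.1, 105.3, 130.8 and 69.0 CPM in F2 stress mice 11 to 15, against 75.6, 82.2, 64.6, 67.2 and 122.2 CPM in F2 no-stress mice 16 to 20. In F1, 4 of 5 stress mice lay above all no-stress mice and mouse 5 lay among them, and in F2 the groups overlapped, with mouse 20 next to the highest. With the GC content and length offset, the log2 fold changes of the 8 copies ran from 0.15 to 0.66 in F1 and from −0.23 to 0.20 in F2.

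The lineage difference itself was set against generation. Zfp335 was the Zfp gene whose lineage difference was lower in F2 than in F1 beyond the threshold, and Zfp706 and Zfp748 had a higher one, so 3 of 233 members were called, beside 2.52% of all genes (0.837% higher, 1.68% lower). The F2 minus F1 difference in log2 fold change was −0.83 ± 0.17 SE for Zfp335 (adjusted p = 0.0309), 0.43 ± 0.11 SE for Zfp706 and 0.52 ± 0.14 SE for Zfp748 (adjusted p = 0.0472 for both, edgeR). Zfp335 averaged 17.1 ± 2.01 CPM in F2 stress and 25.3 ± 4.06 CPM in F2 no-stress mice, and 21.6 ± 1.91 CPM in F1 stress and 18 ± 2.83 CPM in F1 no-stress mice (SD, n = 5 each). Zfp706 averaged 233.7 ± 20.5 CPM in F2 stress and 194.3 ± 3.16 CPM in F2 no-stress mice, and 203.3 ± 11.97 CPM in F1 stress and 227.5 ± 25.8 CPM in F1 no-stress mice (SD, n = 5 each). In all 3 genes the F1 difference had the opposite sign to the F2 one and was not called itself. Zfp653 came next by p (−0.61, adjusted p = 0.0583), then Zfp958, a KRAB-like gene (0.57, adjusted p = 0.0642).

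These 3 calls were sensitive to single mice. They numbered 0 without F1 stress mouse 2, 3 or 4, F1 no-stress mouse 7, 8 or 10, F2 stress mouse 11, 12 or 13, or F2 no-stress mouse 16 or 17. They numbered 14 without F2 stress mouse 14, 9 without mouse 15, 8 without F2 no-stress mouse 18, 7 without F1 no-stress mouse 6 and 1 without mouse 9. With the GC content and length offset 0 members and 0.0% of all genes were called. DESeq2 called 15 members (8.01% of all genes), 9 higher (3.76%) and 6 lower (4.25%). By limma-voom 0 were higher (0.634% of all genes) and 1 lower (1.53%), beside 2.16% in either direction.

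Generations were also compared within each lineage, using the same libraries as the lineage comparisons, so these values are not independent of those above. Between F2 and F1 mice of the stress lineage, 0 members were called by edgeR, with 5 at an unadjusted p below 0.05, and DESeq2 and limma-voom also called 0. Among all genes 0.012% were called. The smallest p belonged to Zfp335, with a log2 fold change of −0.34, followed by Zfp706 (0.20), Zfp958 (0.27), Zfp831 (−0.32) and Zfp3 (0.26), at edgeR adjusted p values from 0.643 to 0.712. Between F2 and F1 mice of the no-stress lineage, Zfp335, Zfp653 and Zfp865 were higher in F2 and 0 members were lower, beside 2.0% of all genes. Zfp335 had a log2 fold change of 0.49 ± 0.12 SE (adjusted p = 0.0434), Zfp653 0.47 ± 0.12 SE and Zfp865 0.43 ± 0.11 SE (adjusted p = 0.0467 for both). Zfp653 averaged 12.9 ± 2.58 CPM in F2 no-stress and 9.36 ± 0.782 CPM in F1 no-stress mice (SD, n = 5 each), and the F2 and F1 mice did not overlap. Zfp692 had the largest value, 0.67, and missed the threshold (adjusted p = 0.0502).

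The levels of 4 genes called in F2 are given over all groups as a description, since they were chosen for their F2 difference. Zfp653 averaged 7.70 ± 0.876 CPM in F2 stress mice, 12.9 ± 2.58 in F2 no-stress, 8.49 ± 0.464 in F1 stress and 9.36 ± 0.782 in F1 no-stress mice (SD, n = 5 each). Zfp523 averaged 44.6 ± 12.6, 74.9 ± 14.4, 50.9 ± 1.86 and 53.45 ± 8.28 CPM in the same order of groups. Zfp655 averaged 41.1 ± 5.71, 31.0 ± 4, 37.2 ± 0.934 and 37.8 ± 2.83 CPM, and Zfp189 11.2 ± 2.42, 7.81 ± 0.852, 9.70 ± 0.807 and 9.83 ± 1.15 CPM in that order. In each of these 4 genes the F1 groups overlapped. The call of Zfp335, Zfp653 and Zfp865 between generations numbered 0 without F1 stress mouse 2, 3, 4 or 5, F1 no-stress mouse 7, 8 or 10, F2 stress mouse 13 or F2 no-stress mouse 16 or 17. There was 1 call without F1 stress mouse 1, F1 no-stress mouse 9, F2 stress mouse 12 or F2 no-stress mouse 20. The calls numbered 5 without F2 stress mouse 11, 6 without mouse 15, 7 without F2 no-stress mouse 18, and 8 without F2 stress mouse 14 or F1 no-stress mouse 6. With the GC content and length offset 0 members were called (0.00599% of all genes), DESeq2 called 14 (6.74%) and limma-voom 1 (1.76%).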

How the data were processed

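The authors deposited 1 table of unnormalised counts, with a row per Ensembl gene and a column for each of 20 mice, per the file headers. The submitters' processing notes name STAR 2.5.3a and the GRCm38 build. How reads were counted (tool, annotation, strand, reads with several places) and how library totals were brought together is not given in those sources. The members, gene lists, tests and alternatives were chosen with earlier results of these data known.

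All tests were fitted on the whole table with edgeR 4.0.16 in R 4.3.3 (quasi-likelihood F test, robust dispersion, TMM factors, filterByExpr, 1 mean per group, all 20 libraries), with Benjamini-Hochberg adjustment over 16727 genes and a call at an adjusted p below 0.05. The common biological coefficient of variation was 18.1%. Each SE was the size of the log2 fold change divided by the square root of the F statistic. It thus rests on the spread in all 20 libraries, not only in the groups compared. The fit was tested on simulated data that held no trend with GC content between libraries, so that test does not bear on the trend seen here. Compared were the stress and no-stress lineages in F2 and in F1, the difference of these, and F2 against F1 in each lineage. Alternatives were DESeq2 1.42.0, limma-voom (limma 3.58.1), other scaling factors and filters, 1 surrogate variable (sva 3.50.0), an offset removing each library's dependence on gene GC content and length (splines of 5 degrees of freedom, 16692 genes), only the groups compared, other member limits, an adjusted p of 0.1 and each mouse left out.

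The rule for named genes took, in each comparison, up to 12 higher and 12 lower called members by p, or the 5 smallest p where fewer than 5 were called, up to 4 members per role list, the 5 highest members, the 3 on each side of the count limit, and Zfp189, Zfp36, Zfp503, Zfp57, Zfp445, Zfp653 and Zfp931. Zfp36 (663 counts in all) and Zfp503 (1743) were below the limit and uncalled. Zfp362, Zfp467, Zfp28 and the chromosome 2 copies were named after their values were seen. Sequences, GC content and transcript length come from GENCODE vM21. A C2H2 finger was counted by the spacing of its cysteines and histidines in the translated longest coding sequence. A KRAB-like stretch was found there by either end of the A-box. Both are pattern matches, so a KRAB box may be missed or wrongly found. Of 292 tested genes with a KRAB-like stretch, 257 had a finger. Levels per kilobase used the longest transcript. Figures were drawn with Python 3.11.15.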

Additional observations from a re-analysis of the deposited data

Results flagged for a closer look

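Among 200 groups of 5 mice (50 named genes in 4 groups), 13 held a mouse far from the other 4, and chance gives about 1 in 20 such groups. In F2 stress mice, mouse 14 was high for Zfp189 (15.3 CPM, next 10.98) and Zfp831 (49.1 CPM, next 32.9), and mouse 15 was high for Zfp523 (66.2 CPM, next 44.0) and Zfp710 (20.8 CPM, next 13.2). In F2 no-stress mice, mouse 19 was low for Zfp787 (6.85 CPM, next 8.73), and mouse 20 was high for Zfp638 (132 CPM, next 111) and Zfp91 (139 CPM, next 120). In F1 stress mice, mouse 1 was low for Zfp687 (29.6 CPM, next 37.9) and high for Zfp106 (241 CPM, next 216), and mouse 2 was high for Zfp644 (70.6 CPM, next 67.6). In F1 no-stress mice, mouse 6 was low for Zfp958 (7.22 CPM, next 8.24), mouse 9 high for Zfp513 (14.9 CPM, next 12.1) and mouse 10 high for Zfp445 (225 CPM, next 181).

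The lineage difference differed between F2 and F1 in 3 genes by the test of that difference, with F2 minus F1 values of −0.827 for Zfp335, 0.429 for Zfp706 and 0.524 for Zfp748 on the log2 scale.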

How the results depend on the processing

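No paired analysis was possible because each mouse had its own number. Between F2 lineages the count of 26 called members (11 higher, 15 lower) was 12 with no low-count filter, 1 with the GC content and length offset, 0 with only the groups compared, 40 at an adjusted p below 0.1, 12 among members of at least 5000 counts and 16 outside genomic runs, and 3 to 38 with 1 mouse left out. Leaving out F2 stress mouse 15 gave 22 higher and 16 lower. The median log2 fold change was −0.032 with the offset against 0.04, and 0.013 to 0.11 with 1 mouse left out. The removal of mice 14 and 20 together, chosen after the data were seen, gave 37 (24 higher, 13 lower; 13.2% of all genes). Other scaling factors gave 23 to 26, DESeq2 33 and 1 surrogate variable 31.

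The difference between generations in lineage effect, with 3 called members, gave 1 with no filter, 0 with the offset, 15 without mice 14 and 20, 1 by limma-voom, 15 by DESeq2, 16 at 0.1, and 0 to 14 with 1 mouse left out. Between F2 and F1 no-stress mice, 3 became 1 with library totals, 0 with no filter, 0 with the offset, 8 with a surrogate variable, 0 with only the groups compared, 9 without mice 14 and 20, 1 by limma-voom, 14 by DESeq2, 14 at 0.1, 1 outside runs, and 0 to 8 with 1 mouse left out; the median of −0.02 became −0.092 without mice 14 and 20, and ran from −0.093 to 0.0079 with 1 mouse left out. None of the genes named for their test changed sign under the alternatives run. Between F1 lineages and between F2 and F1 stress mice, 0 members were called under every alternative run. The equalised library totals hide the original depth, so the precision it gave is not known. The cause of these shifts was not tested.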
